A study of Arabidopsis thaliana with 12 samples.

Results

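Shoot apices of Arabidopsis thaliana that carry the active FRIGIDA (FRI) allele of accession San Feliu-2 (Sf-2) were compared with shoot apices of the Col-0 wild type, in plants that all have an intact FLOWERING LOCUS C (FLC). The arrays were chosen by their titles: 3 arrays titled FRI(Sf-2)-FLC(Col), called FRISf2-FLC here, and 3 titled fri(Col)-FLC(Col), called friCol-FLC here, which makes 6 of the 12 arrays of the series. Each genotype has 1 array on each of day 0, 2 and 4, counted from the move out of short days (9 h light, 15 h dark) into long days (16 h light, 8 h dark), which followed 30 days of growth at 21 °C. FRISf2-FLC is Col-0 with the Sf-2 allele brought in by introgression, so it also carries Sf-2 sequence around FRI, while friCol-FLC has the Col-0 alleles of both genes. The other 6 arrays are of FRISf2-flc3 and friCol-flc3, which have the same FRI alleles as that pair but carry the flc-3 deletion of FLC, with 1 array per day each. The labels give no number of plants per array and no hour of sampling. No genotype has a second array on any day, so the arrays of the genotypes were matched by day.

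FRI encodes a scaffold protein that, with its partners, promotes transcription of FLC. FLC is a MADS-box transcription factor that holds back flowering by repressing genes that start the floral transition in the leaf and at the shoot apex, and cold winters silence it. Col-0 carries a natural loss-of-function allele of FRI and flowers early, and an active FRI in that background makes plants flower late unless FLC is removed or silenced.

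The deposited table gives 1 log2 value per probe set and array. Of 8247 probe sets other than controls, 6185 passed a filter on low values (mean over the 12 arrays above the 25th percentile, 3.56) and were tested, 2736 of them with 1 annotated gene. No probe set was paired with FRI or FLC alone, so the genotypes could not be checked on the genes they differ in. Of the 19 genes listed as markers of the shoot apex, 4 tested probe sets of YAB3, PHV and UFO stood for the list. In FRISf2-FLC and friCol-FLC the YAB3 and PHV probe sets measured 7.86 to 9.09, and UFO, a gene of a small domain of the meristem, 3.45 to 3.92, near the filter. RCA (Rubisco activase), the only leaf marker measured, was at 10.40 to 11.03 on these 6 arrays. The FRISf2-flc3 day 2 array, which is not in the compared pair but enters the estimate of spread, had the highest spike-in control signal (BioB at 9.53, against 7.14 to 7.79 on the other 11 arrays) and the highest residual spread. Within the compared pair, BioB on days 0, 2 and 4 was 7.30, 7.14 and 7.23 in FRISf2-FLC, against 7.71, 7.47 and 7.46 in friCol-FLC. The spike-in BioDn was also lower in FRISf2-FLC without overlap (9.34, 9.00 and 9.26, against 9.67, 9.42 and 9.37), while BioC and CreX overlapped. Whether this bears on the differences between the genotypes was not tested.

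In the comparison of FRISf2-FLC with friCol-FLC, 11 of 6185 probe sets passed the threshold of an adjusted p under 0.05 (0.178%), with 5 higher (0.0808%) and 6 lower (0.097%) in FRISf2-FLC. At an unadjusted limma p under 0.05 the count was 425 (6.87%). The apices were measured whole, so fewer cells of a type and less RNA per cell cannot be told apart in any of these values. The 3 with an annotated gene were AT1G52100, a jacalin-type lectin gene, and BGLU47, a beta-glucosidase gene, both higher, and AT4G01590, lower. Of the other 8, 7 have no gene in the annotation and 1 has several, so they are given by identifier. An identifier ending in _s_at marks a probe set that can match several related transcripts. Differences were fitted with limma in a model additive in genotype and day over all 12 arrays, and the standard error (SE) is what that model leaves. In all 11 probe sets day 0, day 2 and day 4 gave differences of 1 sign, and in 8 the FRISf2-FLC arrays did not overlap with the friCol-FLC arrays. Over all tested probe sets, the 3 FRISf2-FLC arrays lay above the 3 friCol-FLC arrays in 3.95% and below them in 4.09%. The difference was above zero on all 3 days in 16.2% of all tested probe sets and below zero in 15.2%. The 11 were picked by a test on these same arrays, so both traits follow in part from that choice.

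**Figure D1:**
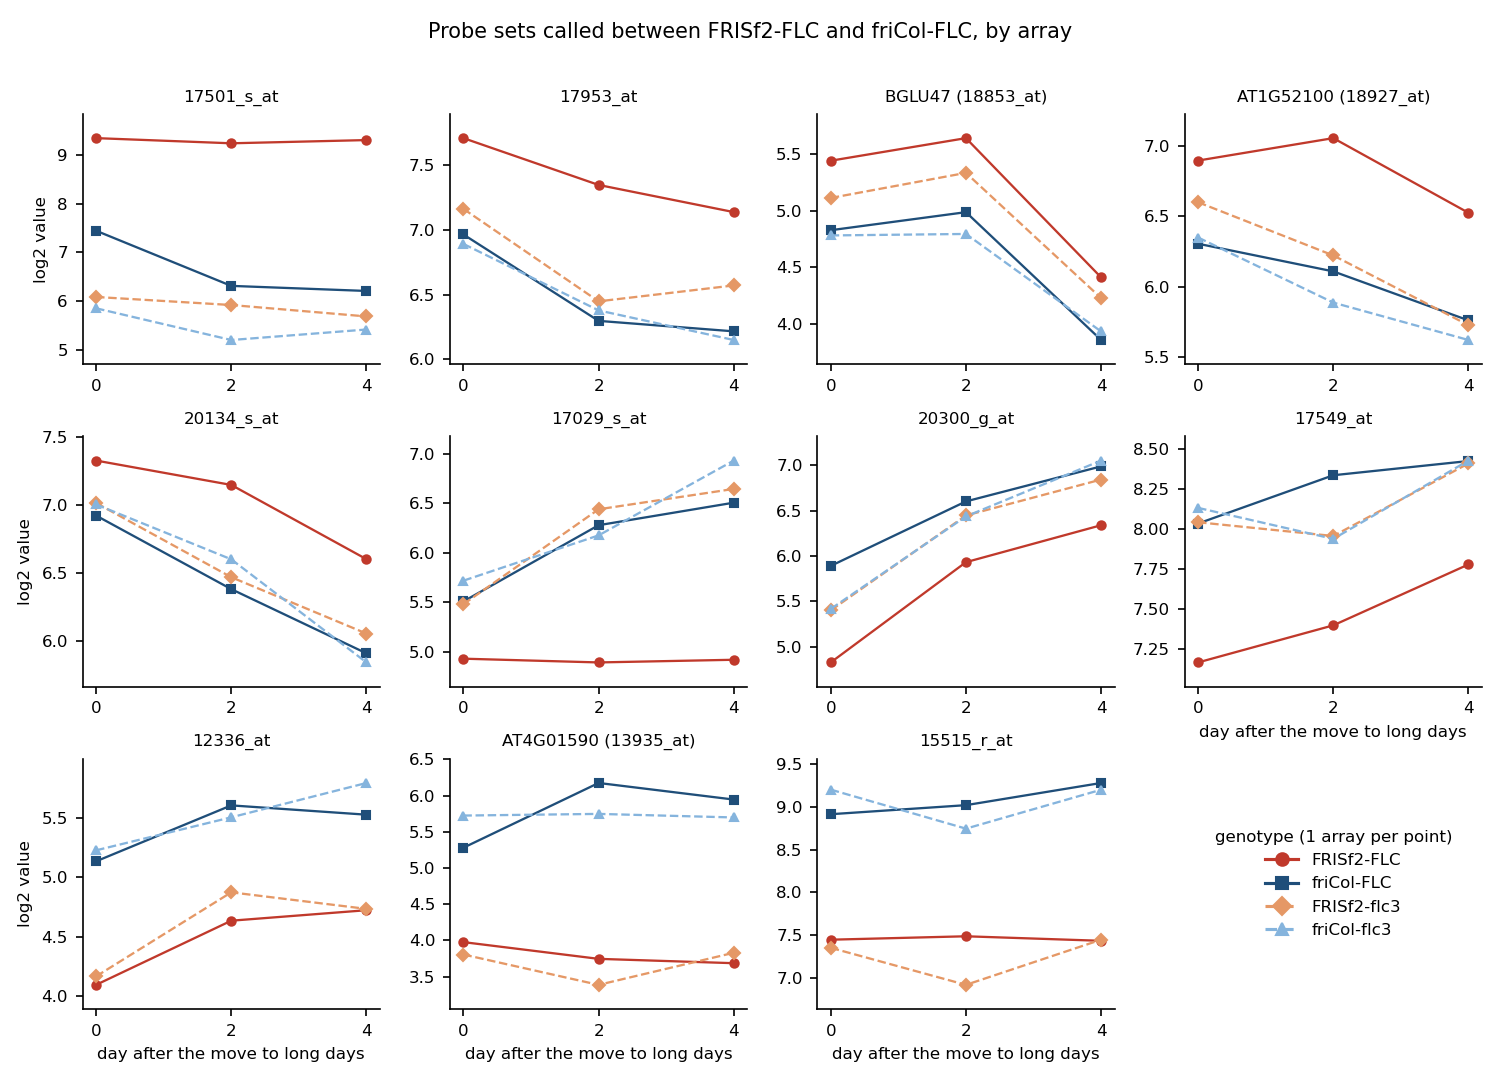
Values of the 11 called probe sets (log2, y axis, a separate scale in each panel) by day of long days (x axis, 0, 2 and 4), 1 point per array, with a line for each of the 4 genotypes. The 17501_s_at line of FRISf2-FLC stays between 9.24 and 9.34, and AT4G01590, 15515_r_at and 12336_at lie low in both genotypes with the Sf-2 allele.

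The largest rise was in 17501_s_at. On days 0, 2 and 4 it measured 9.34, 9.24 and 9.30 in FRISf2-FLC, against 7.45, 6.32 and 6.21 in friCol-FLC (log2). It was flat in FRISf2-FLC over the 4 days, while in friCol-FLC the day 0 array was the highest, and the genotypes did not overlap. The fitted log2 difference of 2.64 ± 0.188 (SE) is a 6.22-fold rise and passed the test (limma adjusted p = 5.54e-05). Its difference by day was 1.90, 2.92 and 3.09, and a test of whether the difference itself changed by day 4 did not pass (1.19 ± 0.34, limma adjusted p = 0.613). The annotation gives no gene for this probe set, so whether it measures FLC itself or another gene cannot be told.

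A smaller rise was in 17953_at, also without a gene, which measured 7.71, 7.35 and 7.14 in FRISf2-FLC, against 6.96, 6.30 and 6.22 in friCol-FLC. It declined over the days in both genotypes without overlap between them, and the fitted difference was 0.91 ± 0.098, or 1.87-fold (limma adjusted p = 0.00135).

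AT1G52100 encodes a protein of the jacalin-type lectins, a family of carbohydrate-binding proteins that in Arabidopsis includes partners of myrosinase, the enzyme that breaks down glucosinolates. It measured 6.89, 7.05 and 6.52 in FRISf2-FLC, against 6.30, 6.11 and 5.76 in friCol-FLC. Every FRISf2-FLC array was above every friCol-FLC array, with a fitted difference of 0.77 ± 0.118, or 1.7-fold (limma adjusted p = 0.0211). The call was lost without the friCol-FLC array of day 0, day 2 or day 4 (limma adjusted p = 0.115, 0.149 and 0.09) or the FRISf2-FLC array of day 2 or day 4 (0.209 and 0.116).

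BGLU47 belongs to the family of beta-glucosidases, which release sugars from glycosides such as lignin precursors and defence compounds. It measured 5.44, 5.64 and 4.41 in FRISf2-FLC, against 4.83, 4.99 and 3.86 in friCol-FLC. Both genotypes measured lowest on day 4, so the arrays overlapped across days, but the difference on each day was close to the others, at 0.61, 0.65 and 0.55. The fitted difference was 0.61 ± 0.0928, or 1.52-fold (limma adjusted p = 0.0211). The call was lost in 7 of 21 alternative settings, which include leaving out any 1 of the 3 friCol-FLC arrays or the FRISf2-FLC array of day 0 or day 2.

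The probe set with several annotated genes, 20134_s_at, measured 7.33, 7.15 and 6.60 in FRISf2-FLC, against 6.92, 6.38 and 5.91 in friCol-FLC. It declined over the days in both, and its fitted difference was 0.62 ± 0.105, or 1.54-fold (limma adjusted p = 0.0423). The call held in 10 of 22 alternative settings and was lost without any 1 of 9 arrays, which include all 3 of friCol-FLC and those of day 2 and day 4 of FRISf2-FLC (limma adjusted p = 0.0505 to 0.261).

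Among the 6 lower probe sets, 17549_at, 20300_g_at and 17029_s_at were called with FLC and not without it. On days 0, 2 and 4, 17549_at measured 7.16, 7.40 and 7.78 in FRISf2-FLC, against 8.03, 8.34 and 8.42 in friCol-FLC. Its arrays did not overlap, and the fitted difference was -0.82 ± 0.11 (limma adjusted p = 0.00768). The call was lost without the friCol-FLC day 2 array (limma adjusted p = 0.0664).

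Values of 20300_g_at were 4.83, 5.93 and 6.34 in FRISf2-FLC, against 5.89, 6.60 and 6.99 in friCol-FLC. Values were higher on later days in both genotypes and lay lower in FRISf2-FLC on each day, most on day 0, with a fitted difference of -0.79 ± 0.107 (limma adjusted p = 0.00768). Without the friCol-FLC day 0 array the limma adjusted p was 0.0523.

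For 17029_s_at the values were 4.93, 4.89 and 4.92 in FRISf2-FLC, against 5.51, 6.28 and 6.51 in friCol-FLC. It stayed level in FRISf2-FLC and increased over the days in the other 3 genotypes, reaching 6.51 to 6.93 on day 4. The fitted difference was -1.19 ± 0.202, or 2.27-fold lower (limma adjusted p = 0.0443). This call was the least stable of the 11, kept in 6 of 22 alternative settings and, when 1 array was left out, only without FRISf2-FLC day 0 or friCol-flc3 day 4.

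The remaining lower probe sets, AT4G01590, 15515_r_at and 12336_at, measured lower in both genotypes with the Sf-2 allele, with and without FLC. AT4G01590, whose locus name places it near FRI on chromosome 4, measured 3.98, 3.75 and 3.69 in FRISf2-FLC, against 5.28, 6.17 and 5.94 in friCol-FLC. The FRISf2-FLC values lay close to the filter on low values, and the genotypes did not overlap. The fitted difference was -2.0 ± 0.198, or 3.99-fold lower (limma adjusted p = 0.000701), and the call was kept in 21 of 21 alternative settings.

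Values of 15515_r_at were 7.45, 7.49 and 7.43 in FRISf2-FLC, against 8.92, 9.02 and 9.28 in friCol-FLC. The FRISf2-FLC arrays were within 0.1 of each other and far below the friCol-FLC arrays, with a fitted difference of -1.62 ± 0.128, or 3.07-fold lower (limma adjusted p = 8.99e-05). For 12336_at the values were 4.10, 4.63 and 4.72 in FRISf2-FLC, against 5.13, 5.60 and 5.52 in friCol-FLC, with a fitted difference of -0.93 ± 0.103, or 1.91-fold lower (limma adjusted p = 0.00135). For both, every FRISf2-FLC array was below every friCol-FLC array. The annotation gives no locus for either, so whether they lie in the introgressed Sf-2 sequence is not known. For these probe sets, a sequence difference under a probe and a change in RNA level cannot be told apart.

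By size alone, 17501_s_at was at least 2-fold higher and AT4G01590 and 15515_r_at at least 2-fold lower in FRISf2-FLC on each of the 3 days, which is 3 of 6185 tested probe sets (0.0485%). At 1.5-fold on each day the count was 14 (0.226%), 6 higher and 8 lower. The count of 11 called probe sets was 6 without the friCol-FLC array of day 0 or of day 2, 7 without the FRISf2-FLC array of day 2, 18 without that of day 0, and 14 without the FRISf2-flc3 day 2 array. It was 3 without a day term and 37 with array weights.

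The same FRI alleles were next compared in plants without FLC, as FRISf2-flc3 against friCol-flc3, to ask which differences also appear where FLC is deleted. These arrays are not shared with the comparison above, though both use the same estimate of spread. In that comparison 5 probe sets passed (0.0808%). They include AT4G01590, 15515_r_at and 12336_at, which differed by -2.05 ± 0.198, -1.81 ± 0.128 and -0.91 ± 0.103 (limma adjusted p = 0.000531, 5e-05 and 0.00212). Each of these 3 lay, in all 6 arrays with the Sf-2 allele, below all 6 arrays with the Col-0 allele. The differences with FLC minus those without it were 0.05 ± 0.28, 0.20 ± 0.181 and -0.02 ± 0.146, and none passed.

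The other 8 probe sets were not called without FLC. There 17501_s_at differed by 0.41 ± 0.188, 17953_at by 0.25 ± 0.098, AT1G52100 by 0.23 ± 0.118, BGLU47 by 0.39 ± 0.0928 and 20134_s_at by 0.03 ± 0.105. The lower ones differed by -0.03 ± 0.11 (17549_at), -0.07 ± 0.107 (20300_g_at) and -0.09 ± 0.202 (17029_s_at). A test of the difference between the FRI effects with and without FLC passed for 2 of 6185 probe sets (0.0323%). Of the 11 called probe sets it passed for 17501_s_at alone, where the effect was larger with FLC by 2.23 ± 0.266 (limma adjusted p = 0.0148). This call was lost, at 2.13 to 2.22, without the day 2 array of FRISf2-FLC or the day 0 or day 4 array of either FRISf2-flc3 or friCol-flc3 (limma adjusted p = 0.0682 to 0.1). For 17549_at, 20300_g_at and 17953_at that test gave -0.79 ± 0.155, -0.72 ± 0.152 and 0.65 ± 0.139, each with a limma adjusted p of 0.224. For AT1G52100 and BGLU47 it gave 0.54 ± 0.167 and 0.22 ± 0.131 (limma adjusted p = 0.506 and 0.809). A p that misses the threshold does not show that these effects were alike with and without FLC.

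**Figure D2:**
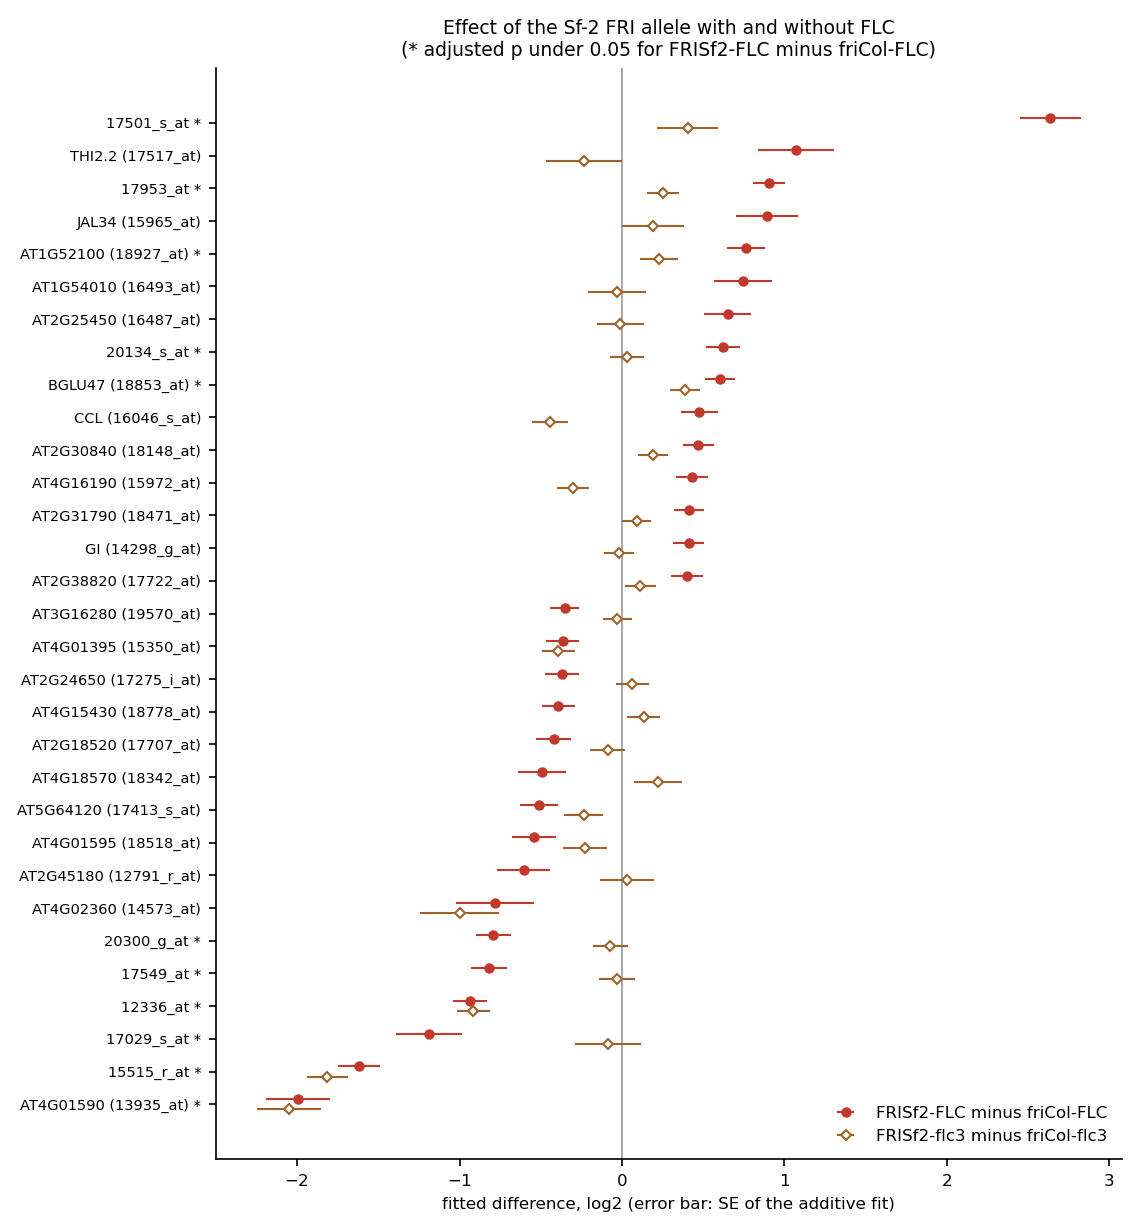
Fitted difference (log2, x axis, with its SE) for the 11 called probe sets, marked with an asterisk, and the 20 named genes that did not pass, in FRISf2-FLC minus friCol-FLC (filled circles) and FRISf2-flc3 minus friCol-flc3 (open diamonds). AT4G01590, 15515_r_at and 12336_at have both symbols at nearly the same place, while 17501_s_at is at 2.64 with FLC and 0.41 without it.

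Below the threshold, the 10 named genes with the highest moderated t among those above zero on all 3 days included genes of defence, glucosinolates and diurnal rhythm. None of them passed, so their values are given as measured. THI2.2, which encodes a thionin, a small antimicrobial peptide, measured 7.15, 6.94 and 5.42 in FRISf2-FLC, against 6.21, 4.91 and 5.18 in friCol-FLC. Its difference was largest on day 2 and small on day 4, with a fitted value of 1.07 ± 0.232 (limma adjusted p = 0.158). JAL34, a jacalin-related lectin gene, measured 5.86, 5.66 and 5.18 in FRISf2-FLC, against 5.25, 4.68 and 4.09 in friCol-FLC, a difference of 0.89 ± 0.19 (limma adjusted p = 0.155). AT1G54010, the GDSL-like lipase gene GLL23, measured 11.32, 11.48 and 11.57 in FRISf2-FLC, against 10.52, 10.84 and 10.79 in friCol-FLC. The arrays did not overlap, and the difference was 0.74 ± 0.179 (limma adjusted p = 0.187).

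Both AT2G25450, which encodes a dioxygenase of glucosinolate side-chain modification, and AT2G31790, a glucosyltransferase gene of glucosinolate synthesis, were among these 10. AT2G25450 measured 8.66, 7.31 and 5.28 in FRISf2-FLC, against 8.47, 6.26 and 4.56 in friCol-FLC. It declined steeply in both genotypes, and its difference was 0.65 ± 0.143 (limma adjusted p = 0.161). AT2G31790 differed by 0.41 ± 0.0918 with the same adjusted p. The diurnal rhythm genes GI and CCL differed by 0.41 ± 0.0927 and 0.48 ± 0.113. On its other probe sets GI differed by less, 0.33 ± 0.112 and 0.21 ± 0.109. AT4G16190 (a papain-like cysteine protease gene) differed by 0.43 ± 0.0995 (0.35 ± 0.102 on a second probe set), AT2G30840 by 0.47 ± 0.0952 and AT2G38820 by 0.40 ± 0.0963. For the named probe sets of these genes, limma adjusted p-values ran from 0.114 to 0.187. Without FLC, 4 of these 10 genes were above zero, and CCL and AT4G16190 measured -0.44 ± 0.113 and -0.30 ± 0.0995 there.

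The 10 named genes at the other end, below zero on all 3 days, had limma adjusted p-values of 0.18 to 0.418. AT5G64120, which encodes a class III peroxidase, a secreted enzyme of the cell wall, measured 4.95, 5.47 and 5.0 in FRISf2-FLC, against 5.57, 6.08 and 5.31 in friCol-FLC, a difference of -0.51 ± 0.118. AT2G45180 measured 9.96, 9.24 and 9.06 in FRISf2-FLC, against 10.39, 9.77 and 9.91 in friCol-FLC, a difference of -0.60 ± 0.164, and its other probe set differed by -0.66 ± 0.242. AT3G16280, an AP2/ERF transcription factor gene, differed by -0.35 ± 0.0895. AT2G18520, AT4G15430, AT2G24650 and AT4G18570 differed by -0.42, -0.39, -0.37 and -0.49. The remaining 3 of the 10, AT4G01595, AT4G01395 and AT4G02360, have locus names close to FRI.

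The Sf-2 allele was introgressed, so loci around FRI (locus name AT4G00650) can carry Sf-2 sequence in FRISf2-FLC, and there a sequence difference under a probe and a change in RNA level cannot be told apart. The span AT4G00005 to AT4G02999 held 113 probe sets with 1 gene, of which 81 were tested and 1, AT4G01590, was called, lower. The median of the 81 differences was -0.04, with 33 above zero and 48 below, against a median of 0.00 over all tested probe sets. The median size of the difference, without its sign, was 0.125 in this span and 0.0738 over the 2653 other tested probe sets with a locus name. In 18 of the 81 (22.2%) the FRISf2-FLC arrays did not overlap with the friCol-FLC arrays, against 7.92% of those others. Split by locus name, the share was 33.3% of 15 for AT4G00005 to AT4G00999, 28.6% of 28 up to AT4G01999, 13.2% of 38 up to AT4G02999 and 3.57% of 28 up to AT4G05999. The share was 7.38% of the 745 further along chromosome 4 and 8.19% of the 1880 on chromosomes 1, 2, 3 and 5. The share was thus higher up to AT4G02999 than in each stretch beyond it, and this was not tested.

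Next to AT4G01590 by locus name, AT4G01595 measured 4.18, 3.95 and 4.02 in FRISf2-FLC, against 4.76, 4.62 and 4.40 in friCol-FLC. It did not pass (-0.54 ± 0.135, limma adjusted p = 0.207). AT4G02360 measured 4.89, 5.05 and 5.21 in FRISf2-FLC, against 5.57, 6.06 and 5.87 in friCol-FLC, a difference of -0.78 ± 0.241, and differed by -1.0 ± 0.241 without FLC. AT4G01395 has 2 tested probe sets that disagree in size. The named one differed by -0.37 ± 0.104 with FLC and by -0.39 ± 0.104 without it, and the other by -0.10 ± 0.155 and -0.23 ± 0.155. The FRISf2-FLC and friCol-FLC arrays did not overlap for AT4G01595, AT4G02360 and the named probe set of AT4G01395, and overlapped for its other one. Of 2 genes singled out after their values were seen, AT4G00780 measured 8.50, 8.27 and 6.84 in FRISf2-FLC, against 8.04, 7.03 and 5.96 in friCol-FLC, with a difference of 0.86 ± 0.233 with FLC and 0.95 ± 0.233 without it. AT4G02850 measured 7.80, 8.10 and 7.70 in FRISf2-FLC, against 7.28, 7.21 and 7.22 in friCol-FLC, a difference of 0.63 ± 0.153, but -0.08 ± 0.153 without FLC. Neither passed (limma adjusted p = 0.275 and 0.192 with FLC). LD (LUMINIDEPENDENS), a gene of the autonomous pathway that lowers FLC, lies in this span too and differed by -0.30 ± 0.132 (limma adjusted p = 0.696).

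**Figure D3:**
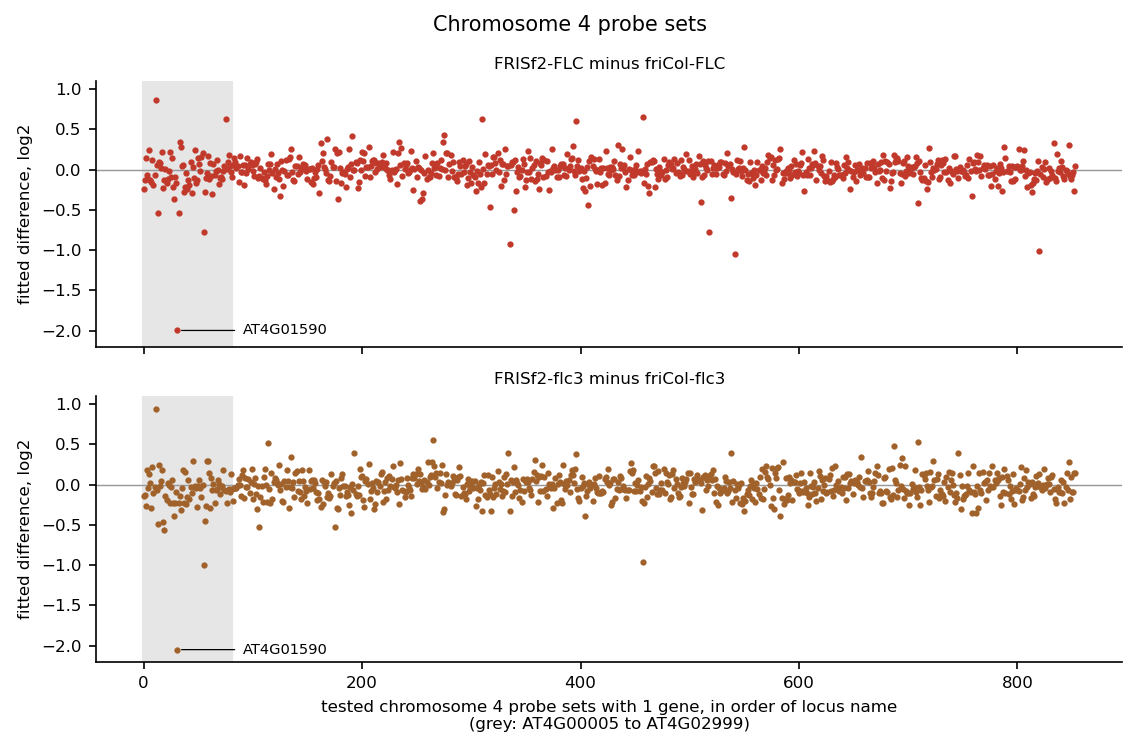
Fitted difference (log2, y axis) of each tested chromosome 4 probe set with 1 gene, in the order of its locus name (x axis), for FRISf2-FLC minus friCol-FLC (upper panel) and FRISf2-flc3 minus friCol-flc3 (lower panel), with AT4G00005 to AT4G02999 in grey. AT4G01590 lies near -2 in both panels, and the points in the grey span scatter more widely than most of those outside it.

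Gene lists of flowering and of the apex were then read against the background of 0.178% called, a median difference of 0.00 and 50.4% of probe sets above zero. Of the list of 21 genes of the FRI complex and FLC activation, of the 22 floral integrators and meristem identity genes and of the 6 root markers, none was paired with a probe set. AGL19, the only gene of the 28 in the MADS-box list with a probe set, was below the filter. The gibberellin gene SLY1, an F-box gene of gibberellin signalling, differed by -0.03 ± 0.0872. Of the photoperiod and clock list, 3 probe sets of GI (GIGANTEA) and 1 of CCL were tested and 0 passed, with values of 0.21 to 0.48 and a median of 0.37. GI links the circadian clock to the day-length response. Its probe set with the highest signal had 8.88, 7.84 and 7.38 in FRISf2-FLC, against 8.53, 7.43 and 7.17 in friCol-FLC, with 1 sign on each day (0.33 ± 0.112, limma adjusted p = 0.508). Without FLC the median of these 4 probe sets was -0.28.

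Among 7 tested beta-glucosidase probe sets, 1 (BGLU47) was higher and 6 did not pass, with a median of 0.25. BGLU33 measured 5.21, 5.06 and 3.88 in FRISf2-FLC, against 4.70, 4.25 and 3.83 in friCol-FLC, and BGLU25 8.44, 8.40 and 8.35 in FRISf2-FLC, against 7.95, 8.17 and 8.22 in friCol-FLC. Neither passed (0.46 ± 0.178 and 0.29 ± 0.106). Without FLC, BGLU33 differed by 0.48 ± 0.178 and BGLU25 by -0.18 ± 0.106, and the median of the 7 was 0.16. Of 3 jacalin-related lectins found by name, 0 passed and all 3 were above zero on each day, with a median of 0.74 (0.18 without FLC). Of all tested probe sets, 16.2% were above zero on each day. The beta-glucosidase and lectin lists were chosen with earlier results of these data known, so their values are description only. JAL31 measured 5.0, 4.97 and 4.44 in FRISf2-FLC, against 4.67, 4.38 and 4.07 in friCol-FLC, and JAL23 8.38, 8.93 and 9.43 in FRISf2-FLC, against 7.06, 8.35 and 9.10 in friCol-FLC. AT1G52100, the called lectin gene, is not in this list because the gene table does not name it as one.

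Genes of photosynthesis and chlorophyll synthesis showed small values, most of them above zero. Of 11 photosystem and light-harvesting probe sets, which stand for 7 genes, 0 passed and 10 were above zero, with a median of 0.16. On all 3 days 7 of the 11 were above zero. PSBW, a photosystem II subunit gene, measured 10.67, 10.64 and 10.49 in FRISf2-FLC, against 10.56, 10.47 and 10.30 in friCol-FLC, a difference of 0.16 ± 0.0679 (limma adjusted p = 0.674). Their median was 0.06 on day 0, 0.20 on day 2 and 0.20 on day 4, and -0.01 without FLC. The carbon fixation genes PRK, RCA and SBPASE differed by 0.26 ± 0.0887, 0.08 ± 0.122 and 0.07 ± 0.0982, and the chlorophyll synthesis genes HEME2 and PORB by 0.24 ± 0.089 and 0.11 ± 0.0965. None of these 5 passed. HEME2 measured -0.34 ± 0.089 without FLC, also not called.

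Of 8 cold and dehydration probe sets, which stand for 5 genes, 0 passed, with 5 below zero and a median of -0.27. COR47, a dehydrin gene, differed by -0.32 ± 0.131 and -0.28 ± 0.148 on 2 probe sets. The 4 tested apex marker probe sets had fitted differences below zero and did not pass, with a median of -0.11 and UFO at -0.20 ± 0.139. Only 2 of the 4 were below zero on all 3 days. YAB3 (locus name AT4G00180) lies in the span around FRI, where probe sequence and RNA level cannot be told apart. In the defence list 0 of 4 passed: THI2.2 is given above, and 3 probe sets of THI2.1 measured -0.16 to 0.05. The GDSL-type lipase list found by name held AT1G54010 alone, given above. The glucosinolate list found by name (GTR1, AOP3 and AOP1) lay at -0.02 to 0.05. The flower and pollen list held AT5G07230 at -0.04 ± 0.124 and SPL at -1.05 ± 0.433, neither called.

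**Figure D4:**
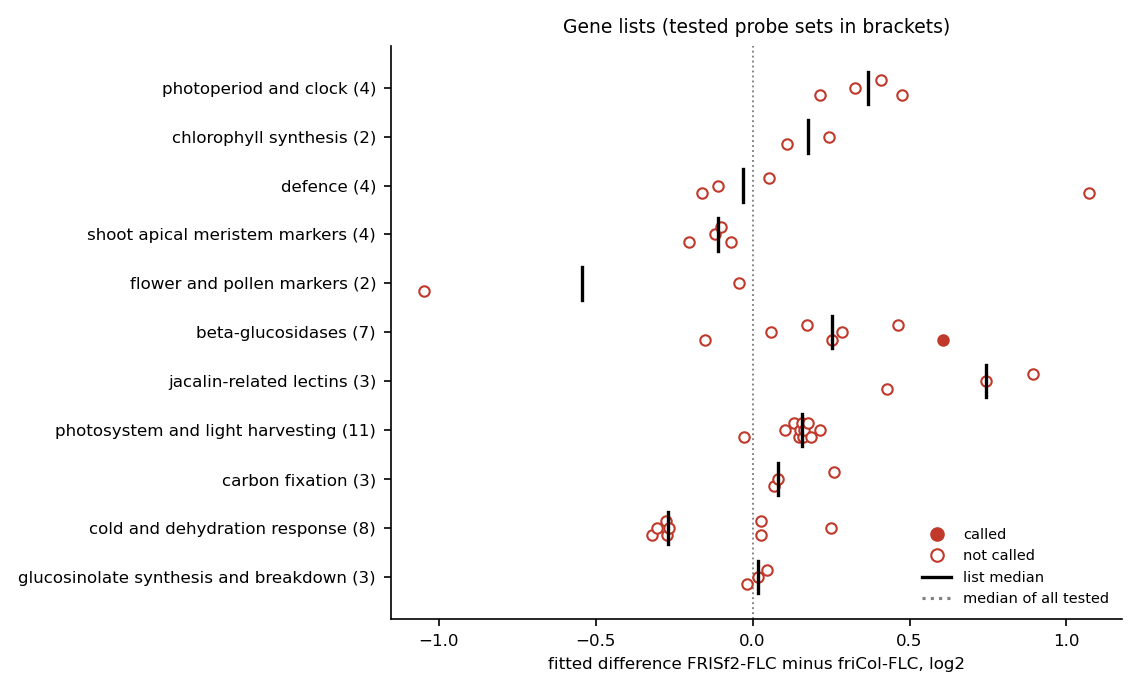
Fitted difference in FRISf2-FLC minus friCol-FLC (log2, x axis) of each tested probe set in the lists with at least 2 tested, the span around FRI left out (y axis, number in brackets), with called probe sets filled, a bar at each list's median and a dotted line at the median of all tested. BGLU47 is the only filled point, and the 3 jacalin-related lectins lie between 0.43 and 0.89.

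Whether the difference between the genotypes changed after the move to long days was tested with day terms of their own for FRISf2-FLC and friCol-FLC, which left 2 residual degrees of freedom. Each value in this contrast is 1 array, and these terms fit the 6 arrays of FRISf2-FLC and friCol-FLC exactly, so the SE and p rest on the spread among the flc-3 arrays and on limma's prior. With day terms for FRISf2-FLC only, the SE for SPL was 0.871 instead of 0.337, and 0 of the day 2 calls and 1 of the day 4 calls passed. Between day 2 and day 0 the difference changed for 8 probe sets (0.129%), 7 up (0.113%) and 1 down (0.0162%), and between day 4 and day 0 for 11 (0.178%), 4 up (0.0647%) and 7 down (0.113%). The day 2 and day 4 comparisons share the day 0 arrays.

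The clearest case over all 4 genotypes was 12876_at, which has no annotated gene. On days 0, 2 and 4 it measured 3.04, 3.12 and 3.10 in FRISf2-FLC, against 3.07, 4.05 and 6.25 in friCol-FLC. It measured 3.27, 4.83 and 6.23 in FRISf2-flc3 and 3.48, 4.38 and 6.66 in friCol-flc3. On day 0 the 4 genotypes lay between 3.04 and 3.48, it stayed low in FRISf2-FLC, and it climbed with each day in the other 3 genotypes. All 3 FRISf2-FLC values, and 6 of the 12 in all, lie below the filter value of 3.56, so the probe set was tested through the arrays where it is high, and the size of the difference against such low signals is uncertain. The fitted change in the difference by day 4 was -3.13 ± 0.411 (limma adjusted p = 0.0156). It also passed with day terms for FRISf2-FLC only, in which the other 3 genotypes share their day terms (-3.05, limma adjusted p = 0.013), and was the only one of the 11 to do so. With the filter at the 50th percentile it was not tested.

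A slower decline was seen in 15238_at, which lies outside the rule for named probe sets and was chosen after its values were seen. It measured 8.08, 8.35 and 6.25 in FRISf2-FLC, against 8.28, 6.49 and 5.16 in friCol-FLC. On day 2 it was still at its day 0 level in FRISf2-FLC and had dropped to 6.49 to 6.73 in the other 3 genotypes. The change in the difference by day 2 was 2.05 ± 0.315 (limma adjusted p = 0.0341), and 1.78 with day terms for FRISf2-FLC only (limma adjusted p = 0.217). Another chosen afterwards, 12761_s_at, was high on 1 array alone, that of FRISf2-FLC on day 2, which stood 1.61 above the next of the other 11. It measured 4.66, 7.47 and 5.54 there, against 4.93, 5.23 and 5.57 in friCol-FLC, a fitted change of 2.51 ± 0.294 by day 2 (limma adjusted p = 0.00613), and 2.06 with day terms for FRISf2-FLC only (limma adjusted p = 0.149).

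In 9 of the other 12 day-dependent probe sets a single friCol-FLC array was at least 1 (log2) above all other 11, and in 7 of these at least 1.5. SPL (SPOROCYTELESS, a regulator of spore mother cell formation) measured 3.29, 3.44 and 3.31 in FRISf2-FLC, against 6.05, 3.37 and 3.75 in friCol-FLC. Of the 11 arrays other than that of friCol-FLC on day 0, 10 lie below the filter value, and SPL passed the filter only through that array. AT4G18375 measured 3.71, 3.65 and 3.58 in FRISf2-FLC, against 6.39, 3.42 and 3.88 in friCol-FLC. UGT71C2, a glucosyltransferase gene, had 4.02, 4.01 and 3.93 in FRISf2-FLC, against 6.72, 3.91 and 4.04 in friCol-FLC. In these, in AT4G38820 (7.06 in friCol-FLC on day 0) and in AT2G34170 (6.80 there), the friCol-FLC day 0 array was at least 1.5 above all other 11 arrays. A second probe set of AT2G34170 measured 4.56 in FRISf2-FLC, against 4.88 in friCol-FLC, on day 0 and was not called. The friCol-FLC day 0 array stood this far above the others for 5 tested probe sets, the friCol-FLC day 4 array for 2, and the FRISf2-FLC day 2 array for 1, which is 12761_s_at. On day 4 the 2 were AT4G26580 (3.66 in FRISf2-FLC, against 6.18 in friCol-FLC) and 15820_at (3.55 in FRISf2-FLC, against 5.70 in friCol-FLC), of which 15820_at also passed the filter only through that array. The 2 with a smaller gap were AT2G30320, at 6.24 on the friCol-FLC day 4 array and at most 4.74 elsewhere, and 19178_at, at 7.09 on the friCol-FLC day 2 array and at most 5.92 elsewhere. With 1 array per genotype and day, the plants of that day and the array cannot be told apart for these.

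AT4G34560 also had its highest value, 6.93, on the friCol-FLC day 4 array, against 4.88 in FRISf2-FLC and at most 6.11 on the others. In 12746_i_at the friCol-FLC arrays of day 0 and day 2 were low, with 7.50, 7.06 and 6.65 in FRISf2-FLC, against 5.55, 6.05 and 6.95 in friCol-FLC. With day terms for FRISf2-FLC only, 105 probe sets had an unadjusted limma p under 0.05 for day 2 and none passed after adjustment.

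**Figure D5:**
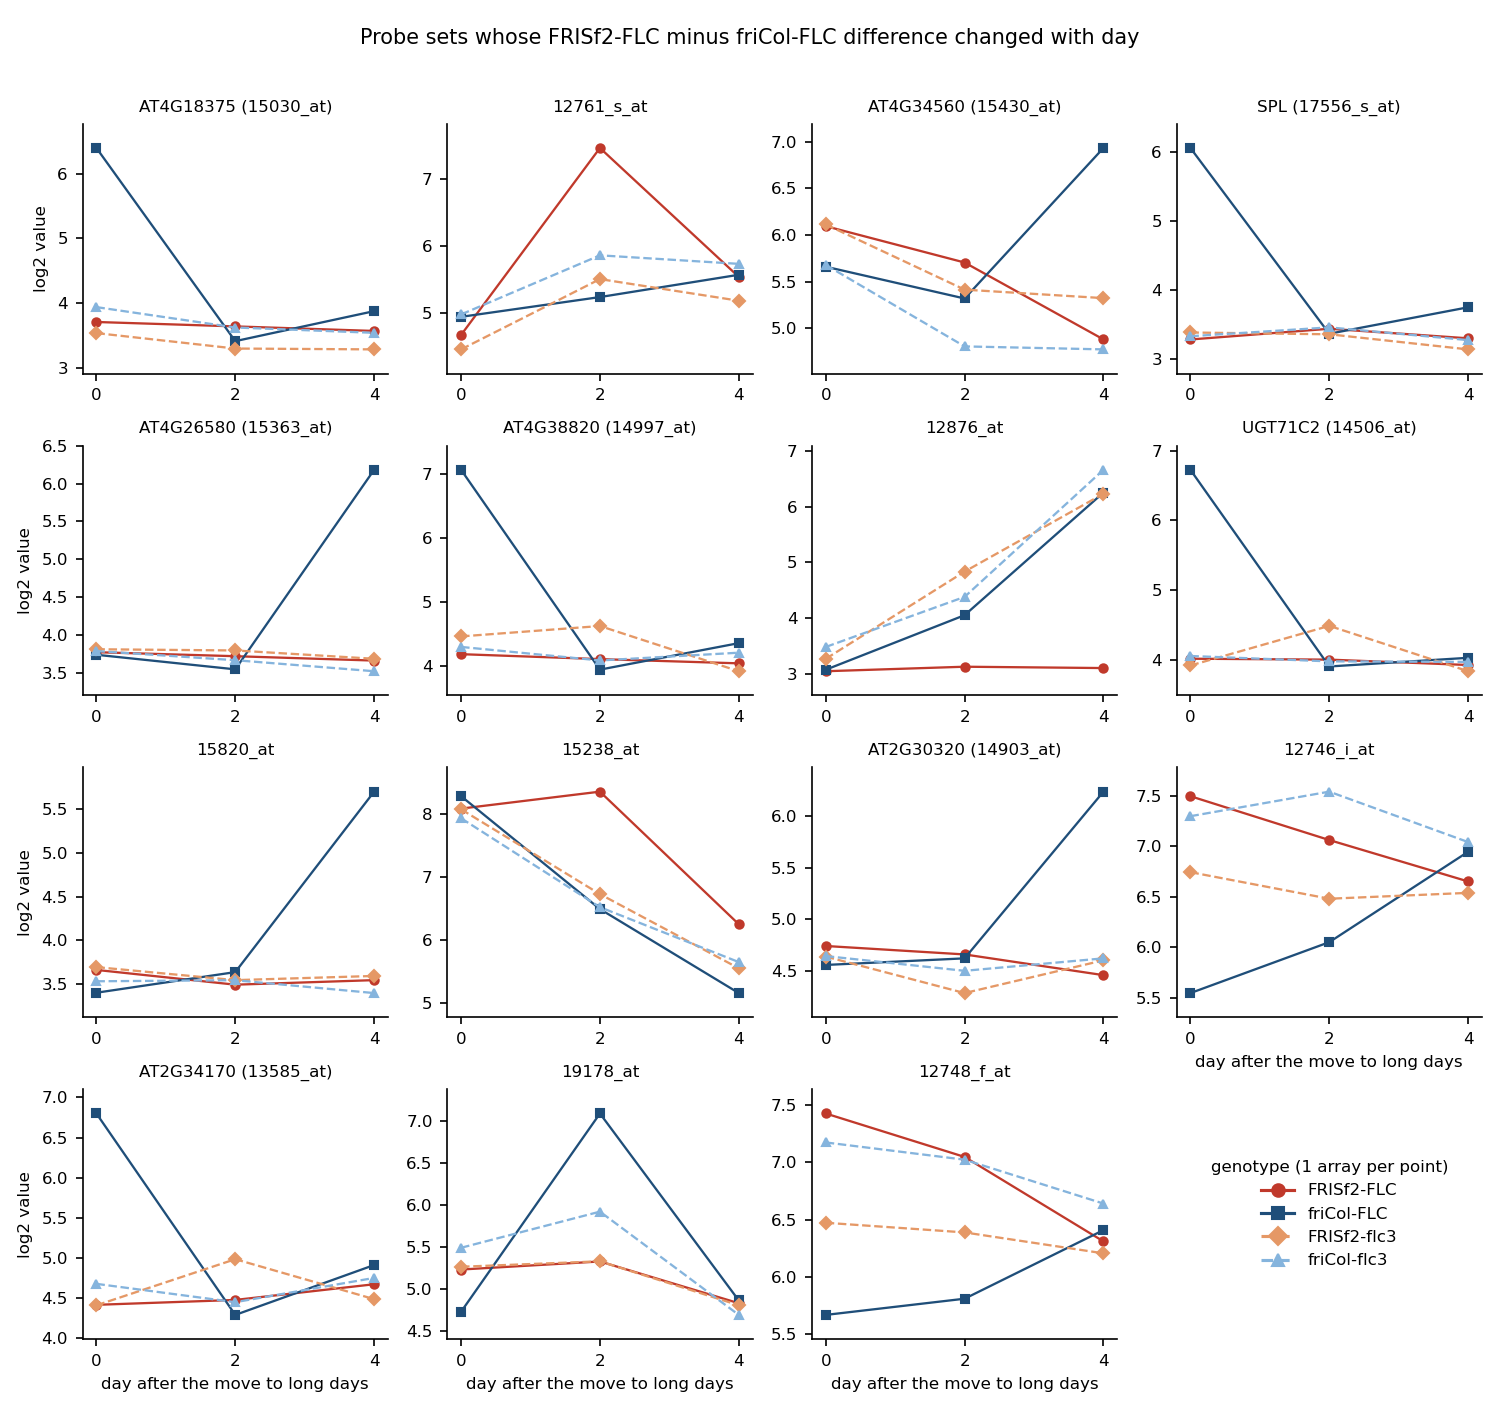
Values (log2, y axis, a separate scale in each panel) of the 15 probe sets whose difference between FRISf2-FLC and friCol-FLC changed with the day (x axis, days of long days), 1 point per array, with a line for each of the 4 genotypes. In 12876_at the FRISf2-FLC line stays near 3.1 while the others climb above 6.2, and in SPL, AT4G18375, UGT71C2 and AT4G26580 a single friCol-FLC array stands apart.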

How the data were processed

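RNA of shoot apices was measured on 12 one-colour oligonucleotide arrays, grouped by sample title. The deposited values are log2 numbers, read as such from the values (2.12 to 13.18). The sources used here do not give the software or normalization behind them. Array medians lay within 0.0582 of each other, and no further normalization was applied. With 12 arrays, their number sets the precision. The table holds 8297 probe sets, 50 of them controls. By the platform annotation 3794 of the rest have 1 gene, 70 several and 4383 none. RefSeq genes (TAIR10.1) held 3784 of these loci. No coordinates are given, because the array names no build, and no sequences were used here.

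Linear models were fitted in R 4.3.3 with limma 3.58.1 (eBayes with a mean-variance trend), with two-sided p-values adjusted by Benjamini-Hochberg over 6185 probe sets at a threshold of 0.05. All 12 arrays entered, so that the other genotypes add to the estimate of spread. The additive model of genotype and day left 6 residual degrees of freedom (prior 5.93), and the model with own day terms 2 (prior 9.47), which come from the flc-3 arrays alone. The p-values therefore measure the spread left by the model, not that between plants. The fit was also run on data simulated with independent noise around additive day terms. Such data cannot test the additive model itself or the spread between plants.

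Named are all called probe sets, the 10 highest and 10 lowest moderated t among uncalled ones with 1 gene and 1 sign on all days, each list's called or strongest member, and up to 5 day-dependent calls per direction. The rule, the members and the lists were chosen with earlier results of these data known. List membership came from locus names, symbols and synonyms. Alternatives were other normalizations, filters, variance trends, day terms, array weights, the 6 arrays alone and leaving out each array.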

Additional observations from a re-analysis of the deposited data

Results flagged for a closer look

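The difference between the FRI alleles itself differed between plants with and without FLC in 2 probe sets, by the test of the difference itself. For 17501_s_at it was larger with FLC by 2.23 ± 0.266 (limma adjusted p = 0.0148). For 16586_s_at the effect with FLC minus that without it was 0.98 ± 0.131 (limma adjusted p = 0.0228), and the effect was larger in size without FLC. It was -0.13 ± 0.0925 with FLC and -1.12 ± 0.0925 without it (limma adjusted p = 0.888 and 0.000149). The call for 16586_s_at was kept in 13 of 21 alternative settings. In 16586_s_at the values were 5.52, 5.56 and 5.57 in FRISf2-FLC, against 5.46, 5.73 and 5.86 in friCol-FLC. Values were 4.45, 4.50 and 4.72 in FRISf2-flc3, against 5.55, 5.64 and 5.82 in friCol-flc3.

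The difference between FRISf2-FLC and friCol-FLC itself changed between day 0 and day 2 for 8 probe sets. The change was 3.04 for AT4G38820, 2.91 for AT4G18375, 2.84 for SPL, 2.80 for UGT71C2 and 2.58 for AT2G34170, all with a high friCol-FLC day 0 array. SPL passed the filter on low values only through that array. The change by day 2 was 2.51 for 12761_s_at and 2.05 for 15238_at. For 19178_at it was -2.26, with 5.24, 5.33 and 4.83 in FRISf2-FLC, against 4.73, 7.09 and 4.87 in friCol-FLC.

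Between day 0 and day 4 the change was -3.13 for 12876_at, -2.56 for AT4G26580, -2.49 for AT4G34560, -2.42 for 15820_at and -1.97 for AT2G30320. All 3 FRISf2-FLC values of 12876_at lie below the filter value, and 15820_at passed the filter only through the friCol-FLC day 4 array. With own day terms for FRISf2-FLC only, 1 of the 11 day 4 calls passed, that of 12876_at. The change by day 4 was -2.24 for 12746_i_at and -1.85 for 12748_f_at. It was 2.60 for UGT71C2, 2.56 for AT4G38820, 2.38 for AT4G18375 and 2.32 for SPL, which share the friCol-FLC day 0 array with the day 2 changes.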

How the results depend on the processing

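The count of 11 called probe sets for FRISf2-FLC against friCol-FLC was 7 with day as a number, 3 without a day term (arrays not matched by day) and 37 with array weights, and 6 to 18 when 1 array was left out. Other normalizations, filters and variance trends and a fit on the 6 arrays alone gave 8 to 16. 17501_s_at and 15515_r_at kept their call in 22 of 22 settings, AT4G01590 in 21 of 21, 17953_at in 21 of 22, 12336_at in 20 of 21, 17549_at in 20 of 22, 20300_g_at in 19 of 22, AT1G52100 in 16 of 22 and BGLU47 in 14 of 21. For the FRI effect without FLC the count of 5 became 2 under a filter at the 50th percentile and 11 with only the 6 arrays of its genotypes, and 5 to 7 when 1 array was left out. The 2 calls for the difference of the FRI effects became 0 without a day term in limma (149 with an unadjusted p under 0.05) and 0 to 9 when 1 array was left out (9 without FRISf2-FLC day 0, 4 without friCol-FLC day 2 or day 4, 1 without the friCol-FLC array of day 0 or the friCol-flc3 array of day 2). The 8 day 2 calls became 5 with quantile normalization, 5 with median centring, 1 under the stricter filter and 0 with own day terms for FRISf2-FLC only. The 11 day 4 calls became 1 with that filter and 1 with those day terms. The 3 probe sets past 2-fold became 14 at 1.5-fold. The cause of these changes was not tested. Uncalled values near zero changed sign in 3 genes: SLY1 (-0.074 to 0.033 when 1 array was left out, positive without the FRISf2-FLC day 0 array), RCA (-0.068 to 0.255, negative without friCol-FLC day 2) and AOP1 (-0.016 to 0.0907, negative without friCol-FLC day 2 and, at -0.0065, without FRISf2-FLC day 2). Leaving out an array was not run for the day-dependent tests, which rest on single arrays.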
